A study of Mus musculus with 18 samples.

Results

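The comparison described here sets mammary glands of 7-week-old RonTK-/- mice against those of RonTK+/+ mice of the same age. RonTK-/- mice lack the tyrosine kinase domain of Ron, and all animals were virgin females. It rests on 6 of the 18 arrays of the series, 3 labelled RonTK-/- and 3 labelled RonTK+/+, and the other 12 arrays hold the same genotypes at 5 and 6 weeks, 3 arrays per genotype and age. Total RNA came from whole glands, so epithelium, fat, stroma and any muscle or lymph node left on the gland were measured together. The labels name no strain background, no stage of the oestrous cycle and no scan date. They do not say whether the 3 arrays of a group came from separate mice. The p-values therefore measure only the spread between arrays, which may be technical. That spread was estimated within groups over all 18 arrays, so standard errors (SE) and p-values also reflect the arrays at 5 and 6 weeks.

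Ron, the product of Mst1r, belongs with Met to a family of receptors with tyrosine kinase activity. Mst1 encodes its ligand, macrophage-stimulating protein, which is activated by proteolytic cleavage, after which Ron signals through adaptor proteins to the MAP kinase, phosphatidylinositol 3-kinase, Stat3 and beta-catenin pathways. In the mouse mammary gland, puberty is the time at which ducts lengthen and branch through the fat pad, driven by oestrogen and growth factors, and ovarian progesterone then acts on the ductal epithelium through paracrine signals.

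Values are the deposited ratios per probe set, in which 1 is the median of the RonTK+/+ arrays for 87.4% of the 45101 probe sets, so a gene can be compared between arrays but not with another gene. Differences are RonTK-/- minus RonTK+/+ means of log2 ratios over 18193 genes, tested with limma, and a gene was called at a Benjamini-Hochberg adjusted p under 0.05. Of the 6 arrays, 2 controls stood apart. RonTK+/+ array 2 was low in skeletal muscle transcripts (mean log2 ratio of 25 muscle genes -5.26, against 0.12 to 0.47 in the other 5 arrays) and high in lymphocyte transcripts. RonTK+/+ array 3 correlated across genes with the RonTK-/- arrays at r = 0.80, 0.74 and 0.77, against 0.52 with RonTK+/+ array 1 and -0.29 with RonTK+/+ array 2, where genes are not independent replicates. The main results that rest on these arrays are also given without them. RonTK+/+ array 3 was singled out because it differed from the other controls in proliferation genes. Counts and p-values without it are therefore descriptions. They lend no support to a genotype difference in those genes, in the other lists, or in genes chosen after their values were seen. In whole glands, fewer cells of a type and less RNA per cell cannot be told apart.

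Mst1r itself was measured by 1 probe set. Its place relative to the deleted kinase domain is unknown here, so the genotype labels could not be checked with it. Its ratios were 1.22, 2.1 and 1.3 in RonTK-/- arrays, against 0.808, 0.857 and 1.4 in RonTK+/+ arrays. The groups overlapped through RonTK+/+ array 3, and the difference of 0.60 ± 0.23 (SE) did not pass in limma (adjusted p = 0.445, and 0.0404 without that array). Mst1 had ratios of 0.819, 0.96 and 0.819 in RonTK-/- arrays, against 0.868, 0.97 and 1 in RonTK+/+ arrays, with a difference of -0.13 ± 0.09.

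Of 26 measured genes of the receptor and its signalling pathway, 14 lay above 0 and 12 below, with a median of 0.05 beside 0.02 over all genes, and 0 were called in limma. Over all genes tested 55.4% lay above 0, and the count above 0 of each list below is to be set beside that share. In 1 of them every RonTK-/- array lay above every control, beside 6.38% of all genes, and in 2 every one lay below, beside 3.35%. The adaptor Gab1 had ratios of 1.12, 1.02 and 1.12 in RonTK-/- arrays, against 1.46, 1.43 and 1.28 in RonTK+/+ arrays, so the groups did not overlap (difference -0.35 ± 0.11, adjusted p = 0.397). Ctnnb1, which encodes beta-catenin, differed by -0.27 ± 0.09 (adjusted p = 0.418) with overlapping groups. Stat3, a transcription factor of the pathway, had ratios of 1.16, 1.3 and 1.23 in RonTK-/- arrays, against 1.01, 1.07 and 1.06 in RonTK+/+ arrays (difference 0.23 ± 0.09, adjusted p = 0.456).

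At 7 weeks 6 genes were called, which is 0.033% of all genes tested. Of these, 4 fell and 2 rose in RonTK-/- glands, and 1774 genes had an unadjusted p under 0.05. Zfp949, a zinc finger protein gene, had ratios of 0.248, 0.247 and 0.277 in RonTK-/- arrays, against 0.979, 1.15 and 1.06 in RonTK+/+ arrays. Both sets were tight and far apart, and the gene fell by 2.05 ± 0.16 on the log2 scale, 4.13-fold lower (adjusted p = 9.96e-05 in limma). Pxylp1, which encodes a phosphatase that acts on xylose during glycosaminoglycan synthesis, had ratios of 0.499, 0.496 and 0.491 in RonTK-/- arrays, against 1.1, 1.27 and 1.14 in RonTK+/+ arrays, 2.36-fold lower (adjusted p = 0.000146).

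C920006O11Rik, to which no role is assigned here, stood at 2.48, 2.75 and 2.51 in RonTK-/- arrays, against 0.702, 0.836 and 0.8 in RonTK+/+ arrays, 3.32-fold higher (adjusted p = 0.000228). Its 2 probe sets gave different sizes, 2.86 ± 0.24 and 0.60 ± 0.12 on the log2 scale. Cep162, which encodes a centriolar protein needed for cilium assembly, had ratios of 0.652, 0.59 and 0.576 in RonTK-/- arrays, against 1.54, 1.52 and 0.952 in RonTK+/+ arrays (difference -1.11 ± 0.15, adjusted p = 0.0173). RonTK+/+ array 3 was the lowest of the controls, still above every RonTK-/- array.

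Mid1, a ubiquitin ligase gene on chromosome X whose product binds microtubules, fell by 0.51 ± 0.07 on the log2 scale (adjusted p = 0.022), with ratios of 0.766, 0.679 and 0.759 in RonTK-/- arrays, against 1.05, 1.12 and 0.966 in RonTK+/+ arrays. Only 1 of its 3 probe sets separated the genotypes (-1.48 ± 0.23), while the other 2 differed by -0.11 ± 0.08 and 0.07 ± 0.08. Smad6, an inhibitory Smad that restrains BMP and TGF-beta signalling, had ratios of 1.77, 2.13 and 1.58 in RonTK-/- arrays, against 0.867, 0.778 and 1.18 in RonTK+/+ arrays. It rose by 0.97 ± 0.15 (adjusted p = 0.0401), and RonTK+/+ array 3 again lay nearest to the RonTK-/- arrays.

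**Figure D1:**
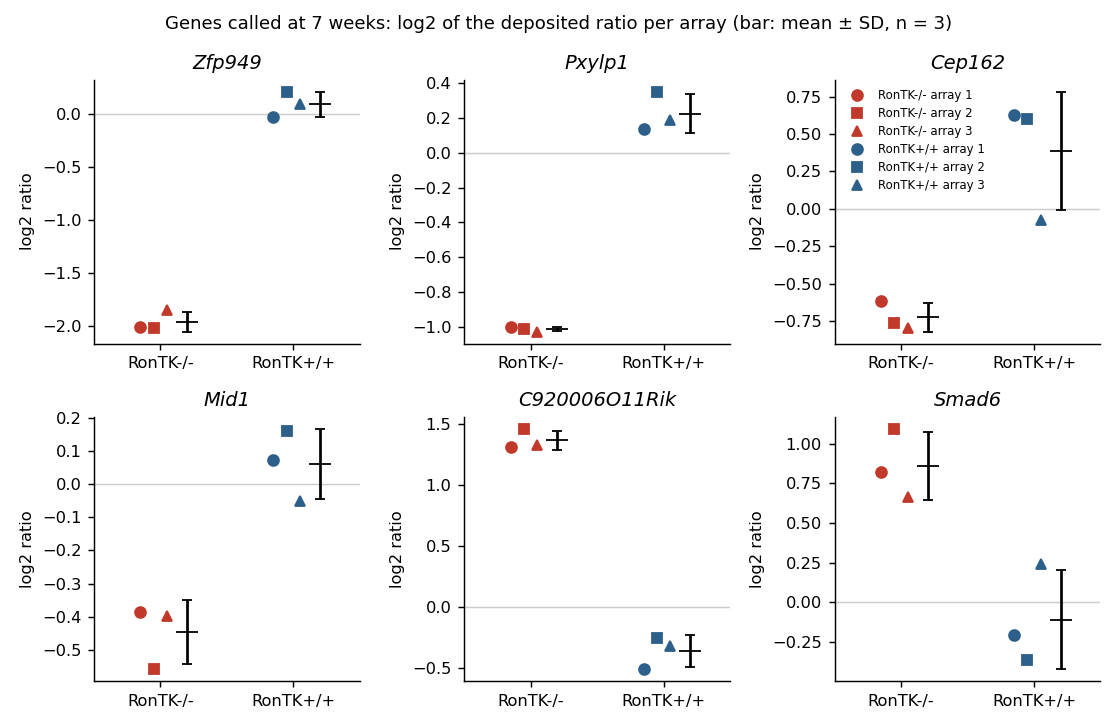
The 6 panels plot the log2 ratio (vertical axis) of each called gene in the 3 RonTK-/- arrays (red, left) and the 3 RonTK+/+ arrays (blue, right), with the mean and SD in black. No panel has overlapping groups, and the RonTK+/+ triangle, array 3, lies closest to the RonTK-/- points for Cep162, Mid1 and Smad6.

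The calls depended on the values of single arrays and on their scaling. Leaving out any RonTK-/- array, or RonTK+/+ array 1 or 2, left 3 or 4 genes called, and Cep162, Mid1 and Smad6 lost their call each time. After quantile normalization 0 genes were called in limma, with the 6 differences between -1.97 for Zfp949 and 1.69 for C920006O11Rik and adjusted p-values from 0.362 for Smad6 to 0.867 for Mid1.

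Of the 6 genes, 5 lie on chromosome 9, which also carries Mst1r and holds 1002 of the genes tested. In the order of tested genes along that chromosome, Mst1r is number 790, Smad6 number 470, C920006O11Rik number 587, Cep162 number 633, Zfp949 number 639 and Pxylp1 number 680. Nck1, an adaptor protein gene at number 708, came next by p-value, with ratios of 0.705, 0.685 and 0.707 in RonTK-/- arrays, against 0.933, 1.05 and 0.935 in RonTK+/+ arrays (difference -0.48 ± 0.08, adjusted p = 0.09). Only 1 of its 3 probe sets separated the genotypes (-1.29 ± 0.10), and it passed in limma when probe sets were tested alone (adjusted p = 7.47e-05). Gsta4, a glutathione transferase gene at number 588, and Ddx43, a helicase gene at number 594, both chosen after their values were seen, differed by -0.65 ± 0.21 and -1.10 ± 0.55 at 7 weeks, by -0.96 and -1.71 at 5 weeks and by -1.02 and -1.55 at 6 weeks. Chromosome 9 as a whole had 61 genes (6.09%) with every RonTK-/- array above every control and 37 (3.69%) with every one below, near the shares over all genes. The strain of the DNA around Mst1r is not in the labels, and its part in these values was not tested.

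The younger ages divide the called genes. At 5 and 6 weeks the differences were -2.38 and -2.16 for Zfp949, -1.10 and -1.20 for Pxylp1, 0.92 and 1.47 for C920006O11Rik, -0.73 and -0.53 for Cep162, and -0.45 and -0.46 for Mid1. These 5 genes kept their direction at every age. Smad6 differed by -0.04 at 5 weeks and by -0.09 at 6 weeks. Its 7-week difference minus the mean of the younger ones was 1.04 ± 0.18 (adjusted p = 0.466). In that contrast 0 genes (0%) were called in limma, 1273 had an unadjusted p under 0.05, and without RonTK+/+ array 3 at 7 weeks 430 genes, or 2.36%, were called.

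**Figure D2:**
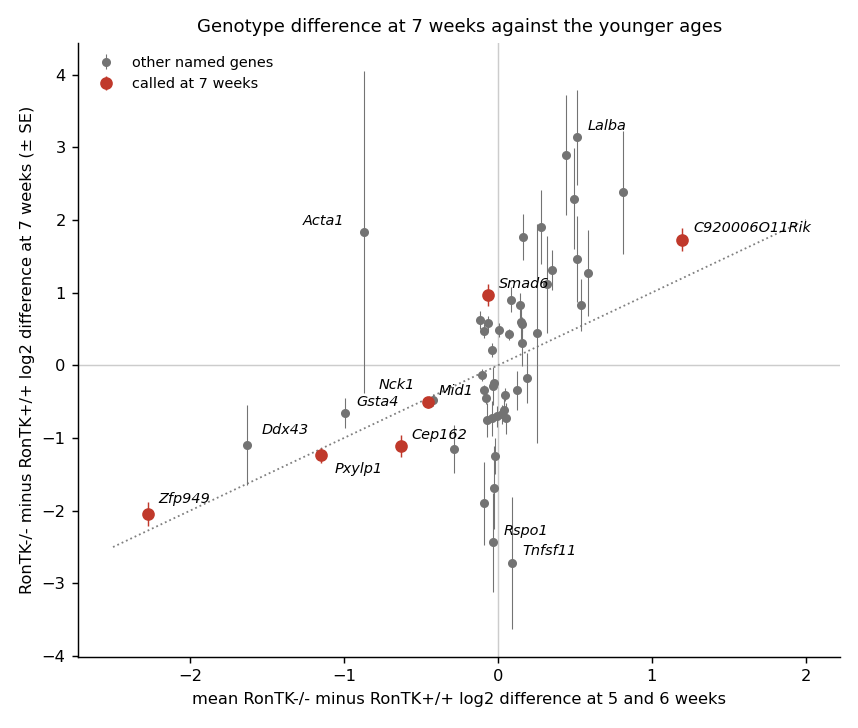
Each point is a named gene, with the mean log2 difference at 5 and 6 weeks on the horizontal axis, the difference at 7 weeks with its SE on the vertical axis, and equality as the dotted line. Zfp949, Pxylp1 and Mid1 lie near the line, with C920006O11Rik farther above it and Cep162 farther below it. Smad6, Tnfsf11 and Rspo1 lie near 0 on the horizontal axis, and Lalba lies far above the line.

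Without RonTK+/+ array 3, 886 genes were called, 353 higher (1.94% of all genes) and 533 lower (2.93%) in RonTK-/- glands, all 6 genes above among them. In that comparison 22.7% of all genes had every RonTK-/- array above both remaining controls and 15.4% had every one below. The array left out was picked because it differed from the other controls in proliferation genes. As a description, it lay nearer to the RonTK-/- mean than to the mean of the other 2 controls for 824 of the 886 genes (93%), against 70.4% of all genes. On a scale where 0 is the RonTK-/- mean and 1 the mean of RonTK+/+ arrays 1 and 2, its median position over the 886 genes was -0.02. The 12 younger arrays had medians between 0.37 and 0.69 on that scale over the 353 higher genes and between 0.01 and 0.45 over the 533 lower ones. For most of these genes the separation at 7 weeks lay between the other 4 arrays and RonTK+/+ arrays 1 and 2. In 196 of the 886, every RonTK-/- array lay apart from every control, RonTK+/+ array 3 included. Of these, 124 were higher and 72 lower. Over all genes the shares apart in this way were 6.38% higher and 3.35% lower.

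**Figure D3:**
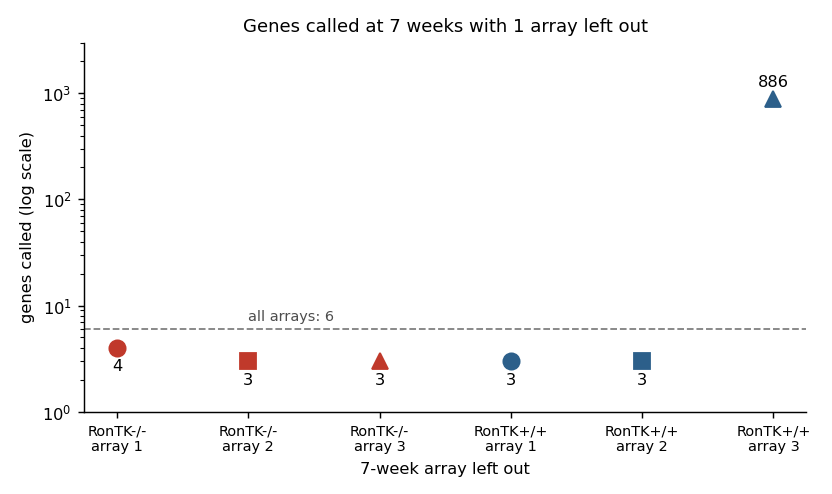
The vertical axis gives the number of genes called at 7 weeks, on a log scale, when the array on the horizontal axis was left out, and the dashed line marks the 6 genes called with all arrays. Leaving out RonTK+/+ array 3 gave 886 genes, and leaving out any other array gave 3 or 4.

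Genes of DNA replication and cell division lay lower in RonTK-/- glands than in RonTK+/+ arrays 1 and 2, but not lower than in RonTK+/+ array 3. All 41 mitosis genes and all 33 genes of DNA replication and S phase had differences below 0, with medians of -0.78 and -0.64 beside 0.02 over all genes, and 0 were called. The mean log2 ratio of the mitosis genes was -0.37, -0.66 and -0.88 in RonTK-/- arrays, against 0.43, 0.74 and -0.65 in RonTK+/+ arrays. That of the S phase genes was -0.44, -0.40 and -0.42 in RonTK-/- arrays, against 0.50, 0.71 and -0.57 in RonTK+/+ arrays. In 1 mitosis gene and 2 S phase genes every RonTK-/- array lay below every control, shares near the 3.35% over all genes. Without RonTK+/+ array 3, which was set aside for its proliferation genes, 34 of the mitosis genes and 30 of the S phase genes were called lower in limma, beside 2.93% of all genes.

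Mki67, which encodes the proliferation marker Ki-67, had ratios of 0.602, 0.363 and 0.229 in RonTK-/- arrays, against 1.71, 2.39 and 0.407 in RonTK+/+ arrays (difference -1.69 ± 0.57, adjusted p = 0.421, and 0.00922 without RonTK+/+ array 3). Top2a, the topoisomerase that untangles sister chromatids, had 0.746, 0.669 and 0.598 in RonTK-/- arrays, against 1.34, 1.43 and 0.709 in RonTK+/+ arrays (difference -0.73 ± 0.24, adjusted p = 0.413, and 0.00927 without RonTK+/+ array 3). Both genes were high in RonTK+/+ arrays 1 and 2, and RonTK+/+ array 3 lay within the RonTK-/- range. Dlgap5, a spindle protein gene, was the mitosis gene whose groups did not overlap, at 0.883, 0.67 and 0.837 in RonTK-/- arrays, against 1.06, 1.2 and 0.933 in RonTK+/+ arrays. The spindle genes Nusap1 and Kif11 and the checkpoint kinase gene Bub1b differed by -0.95 ± 0.30, -1.07 ± 0.34 and -0.68 ± 0.22.

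Among the S phase genes, the replication licensing factor gene Cdc6 had ratios of 0.544, 0.663 and 0.521 in RonTK-/- arrays, against 1.8, 1.82 and 0.649 in RonTK+/+ arrays (difference -1.17 ± 0.33, adjusted p = 0.38). Rfc3, a subunit of the clamp loader, had 0.892, 0.859 and 0.893 in RonTK-/- arrays, against 1.71, 2 and 0.91 in RonTK+/+ arrays, with groups that touched but did not overlap (difference -0.73 ± 0.21, adjusted p = 0.39). Rrm1, a subunit of ribonucleotide reductase, and Cdc45, part of the replicative helicase, differed by -0.64 ± 0.19 and -0.31 ± 0.09.

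Of the genes named for having non-overlapping groups and a call without RonTK+/+ array 3, 2 act in the division cycle. Plk4, the kinase that starts centriole duplication, had ratios of 0.542, 0.598 and 0.585 in RonTK-/- arrays, against 1.51, 2.04 and 0.824 in RonTK+/+ arrays (difference -1.25 ± 0.25, adjusted p = 0.18). Wee1, the kinase that holds back entry into mitosis, had 0.735, 0.65 and 0.672 in RonTK-/- arrays, against 1.18, 1.21 and 0.968 in RonTK+/+ arrays (difference -0.70 ± 0.14, adjusted p = 0.18). Repair genes had a like arrangement. Of 25 genes of the Fanconi anaemia pathway and homologous recombination, a list put together after the values were seen, 21 lay below 0 (median -0.27) and 8 had non-overlapping lower groups, beside 3.35% of all genes. None passed in limma with all arrays, and 15 were called lower without RonTK+/+ array 3, beside 2.93% of all genes. Since the list was chosen by these values, its counts describe the arrays and lend no support to a genotype difference. Fanci, a gene of the Fanconi anaemia pathway, had ratios of 0.906, 0.772 and 0.845 in RonTK-/- arrays, against 1.2, 1.09 and 1.05 in RonTK+/+ arrays (difference -0.41 ± 0.09, adjusted p = 0.236). In 1 of its 2 probe sets the groups overlapped (-0.31 ± 0.13).

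Promoters of cell cycle genes carry known elements, shown here because these genes varied together across the arrays. The windows run from 250 bases before to 50 bases after the start of each gene (RefSeq, GRCm38.p6), read 5′ to 3′ on the gene's strand. In the first 3, capitals mark the cell cycle genes homology region (CHR) element TTTGAA and the CCAAT box, each on either strand, which nowhere overlap in these windows. In the Rfc3 window, capitals mark an E2F element, searched as TTTGGCG and TTTCGCG on both strands. The windows are chr11:99024140-99024439 (minus strand) for Top2a, chr7:135716330-135716629 (minus) for Mki67, chr2:118597961-118598260 (plus) for Bub1b and chr5:151651159-151651458 (minus) for Rfc3.
Top2a: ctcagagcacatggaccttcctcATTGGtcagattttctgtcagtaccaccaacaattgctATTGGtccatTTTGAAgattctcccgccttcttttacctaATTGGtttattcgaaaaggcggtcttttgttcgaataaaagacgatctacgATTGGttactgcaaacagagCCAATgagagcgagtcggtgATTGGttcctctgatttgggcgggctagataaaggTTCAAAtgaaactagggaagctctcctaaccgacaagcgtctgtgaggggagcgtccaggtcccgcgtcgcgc
Mki67: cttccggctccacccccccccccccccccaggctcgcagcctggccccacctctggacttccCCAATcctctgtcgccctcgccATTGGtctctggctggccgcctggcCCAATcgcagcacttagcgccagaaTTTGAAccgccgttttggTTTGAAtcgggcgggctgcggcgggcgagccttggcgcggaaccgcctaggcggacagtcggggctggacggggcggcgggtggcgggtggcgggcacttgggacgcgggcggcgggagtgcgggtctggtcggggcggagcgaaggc
Bub1b: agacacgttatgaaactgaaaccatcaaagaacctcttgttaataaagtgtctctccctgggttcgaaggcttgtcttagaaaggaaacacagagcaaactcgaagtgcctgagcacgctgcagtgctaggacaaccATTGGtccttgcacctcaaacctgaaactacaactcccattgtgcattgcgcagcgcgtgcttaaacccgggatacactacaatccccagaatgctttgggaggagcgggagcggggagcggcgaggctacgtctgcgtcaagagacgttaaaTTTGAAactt
Rfc3: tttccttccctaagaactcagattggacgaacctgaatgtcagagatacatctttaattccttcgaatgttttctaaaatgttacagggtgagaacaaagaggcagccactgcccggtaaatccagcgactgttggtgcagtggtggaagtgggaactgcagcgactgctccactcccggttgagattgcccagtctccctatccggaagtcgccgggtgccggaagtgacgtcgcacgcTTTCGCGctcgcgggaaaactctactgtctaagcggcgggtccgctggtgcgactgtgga

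Of 32 mitosis genes with a promoter in the table, 24 (75%) held TTTGAA and 21 (65.6%) held both TTTGAA and a CCAAT box, against 13.3% and 5.37% of the 14452 promoters of all tested genes. The E2F element was in 9 of 28 S phase promoters (32.1%), in 1 of the 32 mitosis promoters (3.12%) and in 3.47% of all. Matches describe letters in these windows, not binding.

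A few genes chosen after their values were seen had larger differences between the same arrays. Tnfsf11, which encodes the RANK ligand that carries the progesterone signal to neighbouring epithelial cells, had ratios of 0.458, 0.492 and 0.556 in RonTK-/- arrays, against 8.97, 9.27 and 0.427 in RonTK+/+ arrays. Rspo1, which encodes R-spondin 1, an amplifier of Wnt signalling, had 0.914, 1.07 and 1.29 in RonTK-/- arrays, against 15.3, 11.7 and 1.12 in RonTK+/+ arrays. Wfdc12, a secreted protease inhibitor gene, had 0.814, 0.801 and 0.861 in RonTK-/- arrays, against 5.3, 5.75 and 0.956 in RonTK+/+ arrays. All 3 were high in RonTK+/+ arrays 1 and 2 and at or below 1.29 in the other 4 arrays. The differences over all arrays were -2.72 ± 0.91, -2.44 ± 0.69 and -1.90 ± 0.57, with adjusted p-values of 0.418, 0.38 and 0.391 in limma. Without RonTK+/+ array 3 they were -4.19, -3.63 and -2.74. These genes were chosen after their values were seen, and that array lay near the RonTK-/- arrays. The larger differences without it therefore lend no support to a genotype difference.

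Of the 21 measured genes of the hormone response list, Tnfsf11 and Rspo1 included, 15 lay above 0 and 6 below, with a median of 0.06. With all arrays 0 were called. In 1 every RonTK-/- array lay below every control, beside 3.35% of all genes, and in 0 every one lay above, beside 6.38%. Without RonTK+/+ array 3 the 4 called were Tnfsf11, Rspo1, Ccnd1 and Myc, all lower, beside 2.93% of all genes. The cyclin gene Ccnd1 had ratios of 1.05, 0.976 and 0.917 in RonTK-/- arrays, against 1.53, 1.67 and 0.673 in RonTK+/+ arrays, and Myc had 0.915, 1.07 and 1.01 in RonTK-/- arrays, against 1.54, 1.78 and 0.733 in RonTK+/+ arrays. Both followed the pattern of high values in RonTK+/+ arrays 1 and 2. The growth factor gene Igf1 and the growth hormone receptor gene Ghr differed by 0.45 ± 0.22 and 0.26 ± 0.15. Across the younger arrays, the ratio of Tnfsf11 ran from 0.469 to 1.19 in RonTK-/- and from 0.443 to 1.74 in RonTK+/+ glands, and that of Rspo1 from 0.636 to 1.39 and from 0.776 to 1.09. The part of the oestrous cycle in this pattern was not tested.

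Milk genes lay mostly above 0. Of 23 measured genes of milk and secretory differentiation, 17 lay above 0 and 6 below, with a median of 0.55, and 7 had every RonTK-/- array above every control, beside 6.38% of all genes. With all arrays 0 were called in limma. Without RonTK+/+ array 3, 5 were called higher, beside 1.94% of all genes. That array lay nearer to the RonTK-/- mean for 87.5% of all genes called higher without it. The count of 5 therefore only describes the arrays. The mean log2 ratio was 0.50, 0.68 and 0.64 in RonTK-/- arrays, against -0.02, -0.08 and 0.17 in RonTK+/+ arrays. Lalba, which encodes alpha-lactalbumin, the regulatory subunit of lactose synthase, had ratios of 5.28, 7.68 and 5.21 in RonTK-/- arrays, against 0.39, 0.423 and 1.89 in RonTK+/+ arrays. The groups did not overlap, and the difference was 3.13 ± 0.65 (adjusted p = 0.204, and 0.00364 without RonTK+/+ array 3). At 5 and 6 weeks it was 0.84 and 0.19.

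Btn1a1, which encodes butyrophilin of the milk fat globule membrane, had ratios of 2.59, 2.33 and 2.88 in RonTK-/- arrays, against 0.996, 0.69 and 1.66 in RonTK+/+ arrays (difference 1.31 ± 0.33, adjusted p = 0.319). Mfge8, another milk fat globule protein gene, and the mucin gene Muc1 differed by 0.46 ± 0.14 and 0.55 ± 0.18, both without overlap. Wap, encoding whey acidic protein, had 1.87, 2.67 and 2.22 in RonTK-/- arrays, against 1.47, 0.731 and 1.02 in RonTK+/+ arrays (difference 1.11 ± 0.67, adjusted p = 0.627). Glycam1, a mucin-like protein gene of milk and lymph node vessels, was the lowest member, at 0.01 in every RonTK-/- array, the lowest ratio in the table, against 0.0255, 1 and 0.01 in RonTK+/+ arrays (difference -2.67 ± 2.26). RonTK+/+ array 2, the array high in lymphocyte transcripts, held the high value. Wfdc18, an acidic whey protein gene, differed by -0.94 ± 0.53. The casein genes were not alike. Csn3 (kappa-casein) had 2.94, 2.9 and 2.47 in RonTK-/- arrays, against 0.884, 0.77 and 2.24 in RonTK+/+ arrays, while Csn2 (beta-casein) had overlapping ratios of 1.9, 1.84 and 2.48 in RonTK-/- arrays, against 2.43, 1.43 and 1 in RonTK+/+ arrays. Its difference of 0.44 ± 1.51 turned to -0.44 with the muscle list as a covariate. The STAT5 element TTCNNNGAA, the same on both strands, was in 5 of 19 milk gene promoters in the table (26.3%) and in 7.29% of all. Those 5 were the promoters of Pigr, Glycam1, Csn1s2a, Csn1s1 and Csn2. The promoters of Lalba, Mfge8, Muc1, Wap, Ltf and Lcn2 held no match in these windows, and Csn3 and Btn1a1 had no promoter in the table. Bases outside the windows were not searched, and the part of STAT5 in these values was not tested.

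Defence genes of the secretory epithelium and of the acute phase were arranged alike. Of 27 such genes, a list put together after the values were seen, 25 lay above 0 with a median of 0.76. In 11 every RonTK-/- array lay above every control, beside 6.38% of all genes. With all arrays 0 were called, and 8 were called higher without RonTK+/+ array 3, beside 1.94% of all genes. These counts, too, only describe the values by which the list was chosen. Saa1, an acute phase protein gene, had ratios of 2.74, 4.05 and 3.28 in RonTK-/- arrays, against 1, 0.831 and 1.13 in RonTK+/+ arrays, so here RonTK+/+ array 3 lay with the other controls (difference 1.76 ± 0.32, adjusted p = 0.148). The chitinase-like gene Chil1 had 5.58, 6.63 and 5.2 in RonTK-/- arrays, against 0.922, 0.963 and 4.17 in RonTK+/+ arrays (difference 1.90 ± 0.51, adjusted p = 0.376). Ltf, encoding lactoferrin, had 2.95, 4.59 and 3.78 in RonTK-/- arrays, against 0.388, 0.245 and 3.82 in RonTK+/+ arrays, and Lcn2, encoding the siderophore-binding lipocalin 2, had 2.24, 3 and 3.2 in RonTK-/- arrays, against 0.685, 0.611 and 2.46 in RonTK+/+ arrays. RonTK+/+ array 3 lay within the RonTK-/- range for Ltf and Lcn2 and below it, far above the other controls, for Chil1. The hormone gene Cck and the chloride channel protein gene Clic6 had the same form, at 5.85, 5.89 and 4.29 and at 3.68, 4.01 and 3.89 in RonTK-/- arrays, against 0.376, 0.311 and 3.07 and 0.346, 0.395 and 3.58 in RonTK+/+ arrays.

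**Figure D4:**
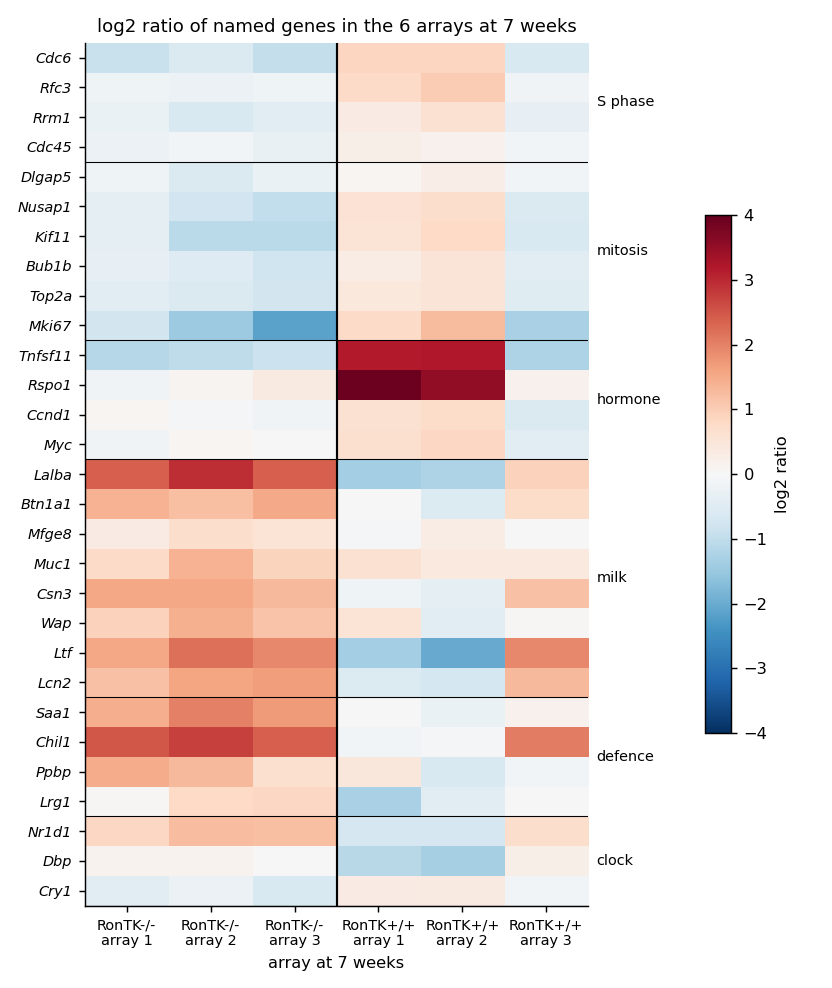
Colours give the log2 ratio of each gene (rows, grouped by list) in the 3 RonTK-/- arrays (left) and the 3 RonTK+/+ arrays (right), from blue (low) to red (high). RonTK+/+ arrays 1 and 2 are high for Tnfsf11 and Rspo1 and low for Lalba and Ltf, and RonTK+/+ array 3 has colours like those of the RonTK-/- arrays in the S phase, mitosis and hormone rows and for Ltf and Lcn2, but not for Saa1 or Wap.

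A clock gene was among those with non-overlapping groups. Nr1d1, which encodes the repressor Rev-erb alpha, had ratios of 1.77, 2.36 and 2.29 in RonTK-/- arrays, against 0.631, 0.621 and 1.61 in RonTK+/+ arrays (difference 1.31 ± 0.27, adjusted p = 0.204). Cry1, a repressor in the same oscillator, had 0.754, 0.855 and 0.656 in RonTK-/- arrays, against 1.26, 1.28 and 0.93 in RonTK+/+ arrays (difference -0.61 ± 0.16). Dbp, a clock output gene, had 1.1, 1.11 and 0.989 in RonTK-/- arrays, against 0.46, 0.4 and 1.18 in RonTK+/+ arrays. Of 18 clock genes, again listed after the values were seen, 14 lay above 0, with a median of 0.09. The labels give no hour of collection, and its part in these values was not tested.

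Stromal and fat lists differed among themselves. Of 19 genes of fibroblasts and matrix 16 lay above 0, but their median of 0.10 was -0.07 without RonTK+/+ array 3, and all 13 brown adipocyte genes did, with a median of 0.52 that was 0.01 without RonTK+/+ array 2. All 15 endothelial genes (median 0.29) and all 12 measured white adipocyte genes (median 0.39) lay above 0, beside 55.4% of all genes. Of these, 6 endothelial and 3 white adipocyte genes had higher groups without overlap, beside 6.38% of all genes, and 0 genes of these lists were called. The mean log2 ratio of the endothelial genes was 0.14, 0.40 and 0.23 in RonTK-/- arrays, against -0.10, -0.09 and 0.14 in RonTK+/+ arrays, and that of the white adipocyte genes 0.18, 0.43 and 0.06 in RonTK-/- arrays, against -0.53, -0.17 and 0.17 in RonTK+/+ arrays. In both lists RonTK+/+ array 3 lay beside the lower RonTK-/- arrays. Eng, encoding the TGF-beta co-receptor endoglin, had ratios of 0.976, 1.21 and 1.12 in RonTK-/- arrays, against 0.893, 0.841 and 0.918 in RonTK+/+ arrays (difference 0.31 ± 0.08, adjusted p = 0.351). The receptor genes Tie1 and Flt1 differed by 0.52 ± 0.17 and 0.40 ± 0.14 with overlapping groups. Among fat genes, the lipid droplet protein gene Plin4 had 1.36, 1.82 and 1.32 in RonTK-/- arrays, against 0.553, 0.95 and 1 in RonTK+/+ arrays (difference 0.88 ± 0.27, adjusted p = 0.393), and the adipokine gene Adipoq had 1.08, 1.06 and 1.04 in RonTK-/- arrays, against 0.782, 0.967 and 1 in RonTK+/+ arrays.

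Matrix remodelling enzymes differed from the cell cycle lists in that RonTK+/+ array 3 lay with the other controls. Of 22 measured genes, 19 lay above 0 (median 0.26) and 8 had every RonTK-/- array above every control, beside 6.38% of all genes, and 0 were called. The mean log2 ratio was 0.28, 0.35 and 0.23 in RonTK-/- arrays, against -0.01, -0.05 and -0.03 in RonTK+/+ arrays. Mmp9, a gelatinase gene, had ratios of 1.08, 1.72 and 1.5 in RonTK-/- arrays, against 0.971, 0.847 and 1.05 in RonTK+/+ arrays (difference 0.56 ± 0.14, adjusted p = 0.314). Mmp3, encoding stromelysin 1, had 3.24, 2.05 and 2.03 in RonTK-/- arrays, against 1.67, 0.948 and 1.77 in RonTK+/+ arrays (difference 0.76 ± 0.31). Ctsk, encoding cathepsin K, and Plat, encoding tissue plasminogen activator, differed by 0.38 ± 0.17 and 0.24 ± 0.12, both without overlap.

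Beside Smad6, 29 other genes of the TGF-beta and BMP pathway were measured. Of all 30, 16 lay above 0 and 14 below (median 0.02), and Smad6 alone was called. The ligand gene Bmp2 had ratios of 1.3, 1.42 and 1.56 in RonTK-/- arrays, against 0.574, 1 and 1 in RonTK+/+ arrays (difference 0.78 ± 0.25, adjusted p = 0.399). The pseudoreceptor gene Bambi, which blocks signalling, differed by -0.38 ± 0.14, and the endothelial receptor gene Acvrl1 by 0.25 ± 0.09. Fst, which encodes follistatin, a secreted binder of activin, had ratios of 1.44, 1.57 and 1.27 in RonTK-/- arrays, against 0.971, 0.87 and 0.931 in RonTK+/+ arrays (difference 0.62 ± 0.13, adjusted p = 0.18).

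Other genes with non-overlapping groups and a call without RonTK+/+ array 3 were spread over roles. Lipa, encoding lysosomal acid lipase, had the smallest p of those outside the called genes that were higher, at 1.25, 1.37 and 1.34 in RonTK-/- arrays, against 0.786, 0.84 and 1.05 in RonTK+/+ arrays (difference 0.58 ± 0.10, adjusted p = 0.09). The chemerin receptor gene Cmklr1 had 1.67, 1.83 and 1.5 in RonTK-/- arrays, against 0.803, 0.798 and 1.1 in RonTK+/+ arrays (difference 0.90 ± 0.17). Hilpda, a lipid droplet gene, Eva1a, Tmem88, Syt14 and Zfp449 differed by 0.49, 0.42, 0.56, 0.83 and 0.48. On the lower side, Gprasp2, which encodes a protein that binds G protein-coupled receptors, had 1.1, 1.04 and 0.994 in RonTK-/- arrays, against 1.87, 1.79 and 1.38 in RonTK+/+ arrays (difference -0.68 ± 0.13). Phyhip, Ankrd26 and Pgbd1 differed by -0.45, -0.24 and -0.34. The 12 higher and 12 lower genes chosen in this way included Smad6, Zfp949, Pxylp1, Cep162 and Mid1, and the others did not pass with all arrays.

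Epithelial markers lay on both sides of 0, and 0 were called in limma. Of 19 luminal genes, 10 lay above 0 and 9 below (median 0.00), with means of 0.47, 0.39 and 0.41 in RonTK-/- arrays, against 0.43, 0.40 and 0.49 in RonTK+/+ arrays. In 3 of them every RonTK-/- array lay below every control, beside 3.35% of all genes. In 1 every one lay above, beside 6.38%. Krt18, a keratin of luminal cells, had ratios of 1.58, 1.25 and 1.37 in RonTK-/- arrays, against 0.939, 1 and 1.5 in RonTK+/+ arrays. Ehf, an epithelial transcription factor gene, had 1.22, 0.864 and 1.1 in RonTK-/- arrays, against 2.88, 2.72 and 1.16 in RonTK+/+ arrays (difference -0.99 ± 0.35, adjusted p = 0.429), the form seen for the cell cycle genes. Kit, a receptor tyrosine kinase gene, had 1.1, 0.958 and 1.26 in RonTK-/- arrays, against 1.42, 1.47 and 1.5 in RonTK+/+ arrays, without overlap. Of 17 basal and myoepithelial genes, 7 lay above 0 (median -0.11). In 2 of them every RonTK-/- array lay below every control, and in 0 every one lay above. The basal keratin gene Krt14 had 1.37, 1.4 and 1.47 in RonTK-/- arrays, against 1.72, 1.51 and 1.58 in RonTK+/+ arrays, without overlap (difference -0.18 ± 0.34).

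The muscle and lymphocyte lists came down to 1 control array. The muscle actin gene Acta1 had ratios of 1.09, 1.03 and 1.01 in RonTK-/- arrays, against 1.08, 0.0214 and 1.07 in RonTK+/+ arrays, and all 25 muscle genes lay above 0 with a median of 1.82, which was -0.11 without RonTK+/+ array 2. The mean log2 ratio of 13 T lymphocyte genes was -2.64, -2.57 and -2.56 in RonTK-/- arrays, against -2.69, 0.09 and -2.65 in RonTK+/+ arrays, and that of 15 B lymphocyte genes -2.09, -1.94 and -2.06 in RonTK-/- arrays, against -2.12, 0.11 and -2.16 in RonTK+/+ arrays. Their medians of -0.82 and -0.62 were 0.04 and 0.03 without that array. With the muscle list as a covariate 7 genes were called, 5 of them among the 6, while Smad6 lost its call (adjusted p = 0.0565) and Nck1 gained one (adjusted p = 0.0309). The part of lymphocyte content in the other results was not tested.

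**Figure D5:**
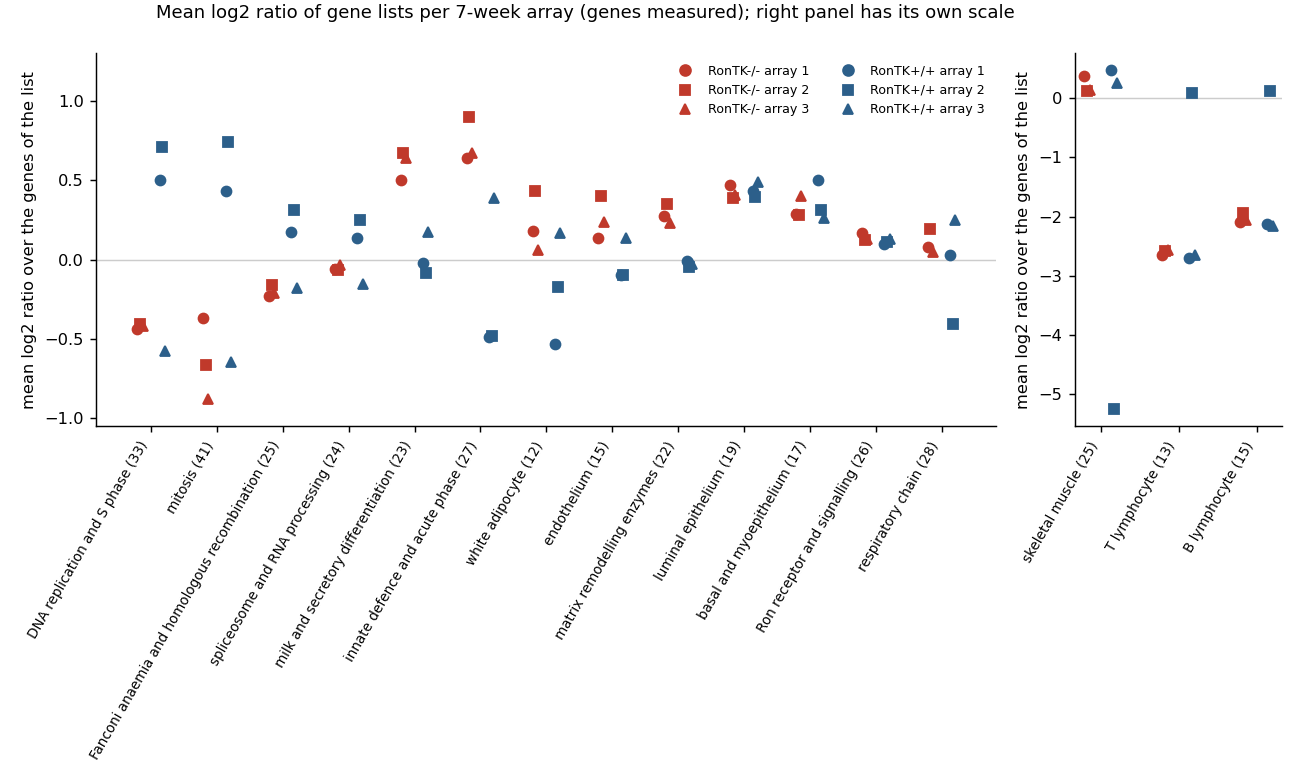
Each symbol is the mean log2 ratio over the genes of a list (number measured in parentheses) in 1 array, RonTK-/- in red on the left of each position and RonTK+/+ in blue on the right. In the cell cycle and repair lists RonTK+/+ array 3 (triangle) lies with the RonTK-/- arrays, in matrix remodelling it lies with the other controls, and in the muscle and lymphocyte lists RonTK+/+ array 2 (square) stands alone.

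Other lists had small median differences with all arrays. All 28 respiratory chain genes lay above 0 with a median of 0.15, which was -0.05 without RonTK+/+ array 2. Of 24 spliceosome genes 20 lay below 0 (median -0.14), of 24 apoptosis regulators 13 did (median -0.05), and of 22 interferon response genes 13 did (median -0.09). Of 23 genes of fatty acid and triglyceride synthesis 12 lay above 0 (median 0.00), and of 16 sterol synthesis genes 6 did (median -0.09, which was 0.21 without RonTK+/+ array 3 and -0.25 without RonTK+/+ array 2). In end bud and branching morphogenesis 23 of 31 genes lay above 0 (median 0.10), with differences from -0.81 to 0.85. In 4 of them every RonTK-/- array lay above every control, beside 6.38% of all genes. In 0 every one lay below, beside 3.35%. The receptor gene Fgfr1 had ratios of 1.38, 1.41 and 1.38 in RonTK-/- arrays, against 0.905, 0.994 and 1.21 in RonTK+/+ arrays (difference 0.44 ± 0.12, adjusted p = 0.38). None of the genes of these lists was called in limma with all arrays.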

How the data were processed

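Biotin-labelled RNA of 18 glands' arrays (Affymetrix Mouse Genome 430 2.0) was measured after TriZol extraction with a spin to remove fat and 1 round of amplification, per the labels' protocols. The deposited values read as linear ratios, judging by their range and medians, because no label names a unit. How the authors summarised probe sets, corrected background and scaled is not stated in the labels, so the level behind a ratio is unknown, probe sets near background could not be left out, and the number of arrays limits the precision. The lowest ratio, 0.01, is shared by 103 values.

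Log2 ratios with no pseudocount were averaged over the probe sets of a gene. Of 45101 probe sets, 64 were controls, 34945 carried 1 gene symbol, 932 carried several and 9160 none here. Of the first, 34741 were matched through Entrez IDs to RefSeq (GRCm38.p6), which changed 0 symbols. RefSeq served for names, gene order and promoters only, and no coordinate of the array files was used. Group means of the 6 groups were fitted to all 18 arrays with limma 3.58.1 in R 4.3.3 (lmFit, then eBayes, with residual degrees of freedom of 12 and prior ones of 1.94), with two-sided p-values adjusted by Benjamini-Hochberg over 18193 genes. Figures used Python 3.11.15 and matplotlib 3.10.9. The fit was tested on simulated data.

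The members, gene lists and tests were chosen with earlier results of these data known. Named were Mst1r and Mst1, called genes, up to 12 higher and 12 lower genes with non-overlapping groups and a call without RonTK+/+ array 3 (smallest p, predicted genes left out), up to 4 members of each list by p, and fixed names. Tnfsf11, Rspo1, Wfdc12, Rfc3, Ddx43, Gsta4, Cck, Clic6, Csn3, Ltf, Lcn2, Chil1, Cry1, Dbp, Ccnd1 and Myc, and the clock, repair and defence lists, were chosen after their values were seen. Alternatives covered normalization, centring, pseudocount, low values, array weights, samples in the fit, replicate block, probe set summary, muscle covariate, fold and left-out arrays.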

Additional observations from a re-analysis of the deposited data

How the results depend on the processing

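The 6 genes called at 7 weeks became 0 after quantile normalization, 3 with only the 7-week arrays fitted, 10 probe sets with every probe set tested alone (4 of the 6 genes among them), and 3 to 886 when 1 array was left out, the highest without RonTK+/+ array 3. Among the 10 probe sets, the smallest adjusted p (4.62e-06 in limma) was that of a set for Srprb, which is not 1 of the 6 genes. Its ratios were 0.432, 0.392 and 0.483 in RonTK-/- arrays, against 1.11, 1.07 and 1.13 in RonTK+/+ arrays. Replicate numbers are not stated to pair the arrays, and deviations of same-numbered arrays correlated at 0.26, -0.01 and -0.20. With the replicate block 2 genes were called, and 0 in the contrast with the younger ages. Array weights at the default setting of limma gave 3872 calls at 7 weeks and 4045 in the contrast with the younger ages, where all other planned settings gave 0 except the fits without 1 array (0 to 430). That weight estimate stopped before converging and gave RonTK-/- array 1 at 5 weeks a weight of 50.8, so gene-by-gene weights were added after both counts had been seen. They ran from 0.311 (RonTK+/+ array 3 at 7 weeks) to 4.22 and gave 546 and 83 calls. The counts with centring, the pseudocount, low values left out, the probe set of largest SD, the muscle covariate and the fold of 1.5 were 5 to 8. The Csn2 difference turned to -0.046 with the default array weights and to -0.44 with the muscle covariate, and that of Acta1 to -0.036 with the muscle covariate and to -0.048 without RonTK+/+ array 2, the lowest of its values without 1 array, which reached 2.78. The cause of these changes was not tested. With ratios only, signal over background is unknown, so probe sets with no signal could not be told from those that did not differ.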
